A study of Mus musculus with 6 samples.

Results

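The transcripts of 8 carboxylesterase genes, Ces2a, Ces2b, Ces2c, Ces2e, Ces2g, Ces3a, Ces3b and Ces4a, were followed in mouse liver. They were taken by gene symbol from the deposited table, in which each had a single row, and make up 8 of its 48699 genes. Hepatic RNA was sequenced from male C57BL/6 adults aged 10 to 12 weeks after an overnight fast of 8 to 10 hours. The deposited column names carry the word chow for both groups. The control group was 3 mice carrying floxed alleles of both Fxr and Shp (Fxrfl/fl Shpfl/fl), and the other group was 3 mice with a hepatocyte-specific loss of both genes (fxr-/- shp-/-). The labels used here name no driver of recombination, and other liver cells keep both genes under the stated genotype. In the knockouts Nr0b2, which encodes SHP, stood at 0.194 ± 0.111 FPKM against 17.0 ± 2.10 FPKM in controls, and Nr1h4, which encodes FXR, at 19.5 ± 3.52 against 66.5 ± 6.15 FPKM (SD, n = 3 each). FPKM counts fragments per kilobase of transcript, scaled to the library total, so levels of different genes can be compared.

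Carboxylesterases are serine hydrolases held in the lumen of the endoplasmic reticulum. They cleave esters, thioesters and amides, and in liver they are known for activating or clearing drugs and pyrethroid insecticides, and several also cleave stored acylglycerols. Rodents carry tandem arrays of these genes where people have few, and the Ces2 array holds the relatives of human CES2, the enzyme that activates irinotecan. FXR is the receptor through which bile acids regulate transcription, and SHP is a corepressor whose gene FXR induces. The design compares the liver with and without the pair in hepatocytes.

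All 8 genes lie in 1 stretch of chromosome 8 (GRCm38), 416.1 kb long from the start of Ces2a at 104734003 to the end of Ces4a at 105150109. In all, 11 carboxylesterase genes are annotated there by GENCODE M21, all 11 on the plus strand, together with 9 pseudogenes and noncoding transcripts that never exceeded 0.218 FPKM in a library. The Ces2 members come first, in the order Ces2a, Ces2b (104831572 to 104840093), Ces2c (104847068 to 104854483), Ces2e (104926260 to 104934672) and Ces2g (104961718 to 104969537). Ces3a (105048601 to 105058413), Ces3b (105083753 to 105093929) and Ces4a (from 105131800) follow. The annotated main transcripts have 12 exons in the Ces2 genes, 13 in the Ces3 genes and 14 in Ces4a. The deposited identifiers are ENSMUSG00000055730.16 for Ces2a, ENSMUSG00000062181.14 for Ces3b, ENSMUSG00000069922.12 for Ces3a and ENSMUSG00000031877.9 for Ces2g. Of the remaining carboxylesterases in the array, Ces2f was listed at 0 in every library, the pseudogene Ces2d-ps reached 0.0466 FPKM and Ces2h 0.403 FPKM. From Ces2a to Ces2h, carboxylesterases of higher level alternate with ones below 1 FPKM, whereas Ces3a, Ces3b and Ces4a follow one another, as the plot of levels along the array shows.

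**Figure D1:**
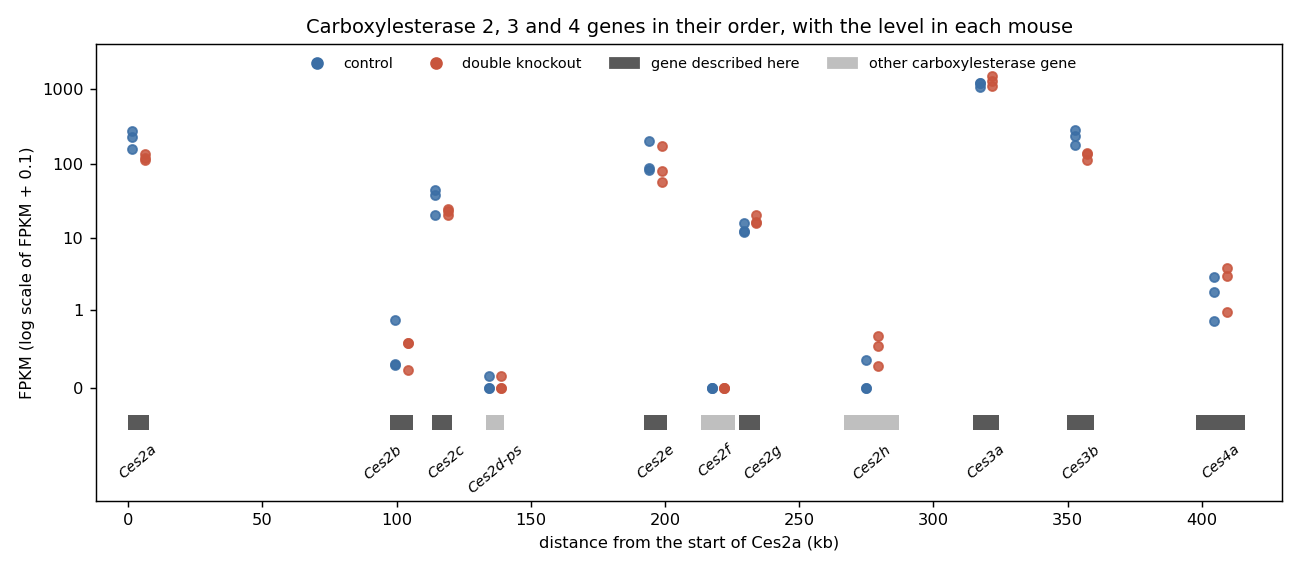
Level of each carboxylesterase of the array in each mouse (y axis, FPKM on a log scale after adding 0.1; 3 points per group and gene) against distance from the start of Ces2a (x axis, kb), with gene bodies as bars below. Ces3a is at 1058 FPKM or more in all 6 mice, while Ces2f, between Ces2e and Ces2g, is listed at 0 in all 6.

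The copies are alike enough to bear on the measurement. Coding sequences of the 5 Ces2 members were between 81.6% and 91.9% identical to each other, with Ces2b and Ces2c the closest pair. Ces3a and Ces3b were 95.3% identical over 1716 aligned bases, and Ces4a was no more than 56.6% identical to any other member. Of all windows of 50 bases in the Ces3a transcript, 30.9% also occurred in Ces3b, and 26.1% of those of Ces3b in Ces3a. In Ces2c, 42.2% of windows recurred in another annotated gene, mostly in Ces2d-ps (38.2%), and in Ces2a 22.2%, mostly in the pseudogene Gm7208 (20.9%), which was not analysed here. The shares were 9.80% in Ces2b, 4.02% in Ces2g, 3.36% in Ces2e and 0% in Ces4a. Neither read length nor the assignment of fragments that fit several genes is given in the sources used, so the split between Ces3a and Ces3b, and the levels of Ces2a and Ces2c, carry an uncertainty that the spread between mice does not show.

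Upstream sequence is shown for Ces2a and Ces3b, the members furthest below the controls in the knockouts, and for Ces2g, the Ces2 member whose level lay on the other side. Each is the 250 bases before the RefSeq start (GRCm38.p6, plus strand), at chr8:104733753-104734002 for Ces2a, chr8:105083505-105083754 for Ces3b and chr8:104961468-104961717 for Ces2g. Capitals mark a nuclear receptor half-site (AGGTCA on either strand) in Ces2a and a TATA box (TATAAA on either strand) in Ces3b; Ces2g holds neither.
Ces2a: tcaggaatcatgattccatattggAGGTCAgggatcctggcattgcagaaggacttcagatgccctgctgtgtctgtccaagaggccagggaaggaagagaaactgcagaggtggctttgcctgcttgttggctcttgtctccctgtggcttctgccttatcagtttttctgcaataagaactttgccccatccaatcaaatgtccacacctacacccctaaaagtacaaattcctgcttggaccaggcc
Ces3b: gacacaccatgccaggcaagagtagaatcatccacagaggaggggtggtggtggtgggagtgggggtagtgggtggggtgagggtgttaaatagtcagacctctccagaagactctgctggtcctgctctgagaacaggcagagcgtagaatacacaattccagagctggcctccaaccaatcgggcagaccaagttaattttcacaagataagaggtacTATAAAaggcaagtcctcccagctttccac
Ces2g: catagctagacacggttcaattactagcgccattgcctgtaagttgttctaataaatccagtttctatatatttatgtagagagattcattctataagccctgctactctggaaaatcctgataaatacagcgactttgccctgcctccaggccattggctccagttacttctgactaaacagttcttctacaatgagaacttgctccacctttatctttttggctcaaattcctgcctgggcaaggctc

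Windows of 300 bases, from 250 before to 50 after the start, were found in the RefSeq table for 6 of the 8 members, all except Ces2b and Ces3a. The half-site was present in 2 of these 6, Ces2a and Ces4a, and in 16.3% of all 32851 windows of that length. The TATA box was present in 1 of 6, Ces3b, where it began 30 bases before the start, and in 13.6% of all windows. None of the 6 held the FXR element, an inverted repeat of AGGTCA with 1 base between (0.00913% of all windows), or a direct repeat of AGGTCA spaced by 1 base (0.0396%) or by 4 bases (0.0152%). Likewise none held the LRH-1 site CAAGGTCA (1.56% of all windows), the HNF4A site CAAAGTCCA (0.475%) or the HNF1 site, an inverted repeat of GTTAAT with 1 base between (0.00913%), searched on both strands. The repeats and the LRH-1 site contain the half-site, so these searches overlap. Over the 250 upstream bases, Ces2a was 63.9% identical to Ces2c, 63.6% to Ces2e and 50% to Ces2g, and 38.2% to Ces3b. The upstream regions of Ces2a and Ces3b were thus less alike than those of Ces2a and Ces2g.

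Ces3a was the most abundant member by far, at 1149 ± 79.9 FPKM in controls (SD, n = 3), and ranked between 68 and 104 among all genes of a library. Ces3b at 231 ± 52.0 and Ces2a at 220 ± 58.2 FPKM followed and did not differ beyond their spread. Ces2e came next at 124 ± 65.5 FPKM, below Ces2a in control replicates 1 and 2 and above it in control replicate 3. Ces2c (34.7 ± 12.6 FPKM), Ces2g (13.5 ± 2.04 FPKM) and Ces4a (1.83 ± 1.120 FPKM) were each lower than the one before in every control mouse. Ces2b, at 0.316 ± 0.359 FPKM, was close to the limit of detection. In the knockouts the members' means had the same order, and Ces3b and Ces2a stood at 129 ± 14.7 and 123 ± 12.7 FPKM, nearer to Ces2e at 103 ± 61.8 FPKM. Summed over the 8 genes, the array gave 1834, 1835 and 1651 FPKM in control mice against 1901, 1643 and 1543 FPKM in knockout mice, between 0.196% and 0.276% of all FPKM. The total of the array overlapped between the groups.

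**Figure D2:**
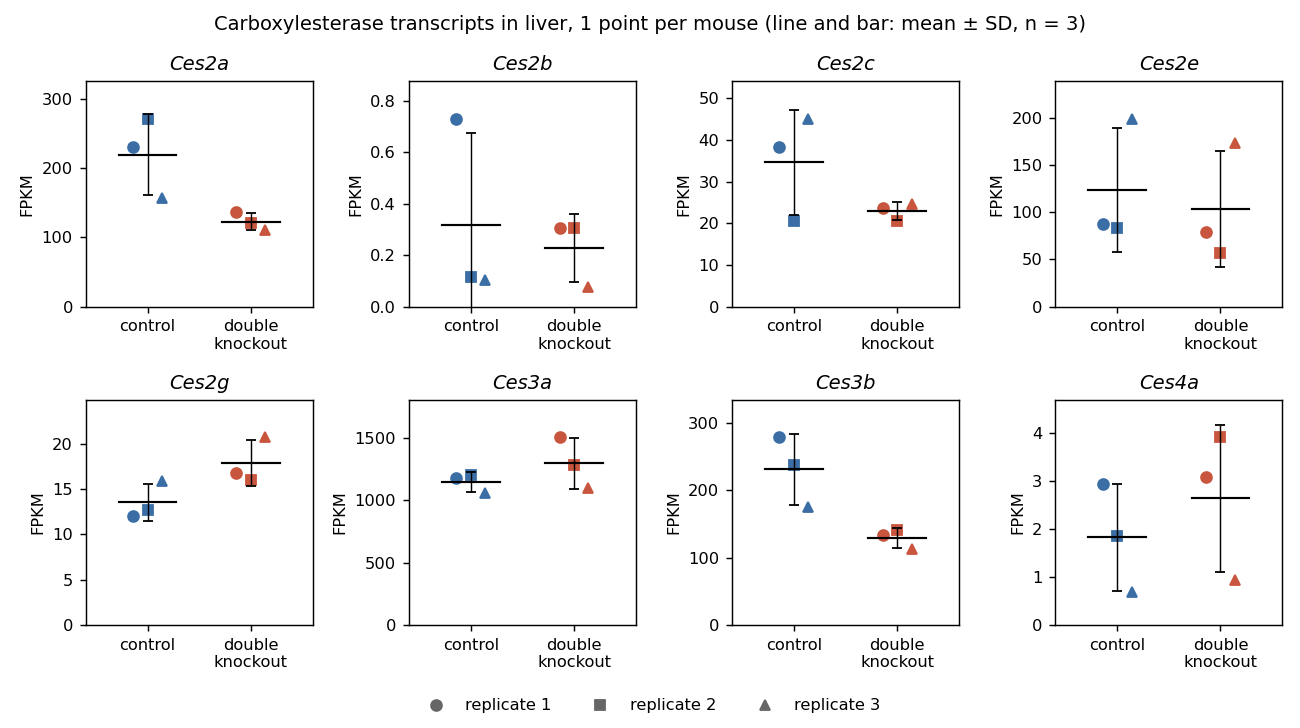
FPKM (y axis, from 0) of each of the 8 genes in the 3 control and 3 double knockout mice (x axis; symbol shape gives the replicate number, the line and bar the mean ± SD, n = 3, a bar being cut at 0 for Ces2b). The control and knockout points are apart for Ces2a, Ces3b and Ces2g, and both mice numbered 3 are the highest in their group for Ces2e.

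Each gene was compared between the groups with limma on log2(FPKM + 1), with Benjamini-Hochberg adjustment over 11810 genes whose mean reached 0.5 FPKM. Of the 8 members, 7 passed that filter, all but Ces2b. None of the 7 passed the limma threshold of adjusted p 0.05, which 0.313% of all tested genes did, 20 higher and 17 lower in the knockouts. At an unadjusted limma p under 0.05 there were 2 members, Ces2a and Ces3b, where 14.9% of all tested genes were that low (7.98% and lower in the knockouts). The authors' deposited table called the same 2 genes lower and no member higher, among the 4.58% of its tested genes called (1.73% called lower). The 7 tested members had 3 positive and 4 negative fold changes and a median of -0.29, beside -0.01 over all tested genes. An exact permutation test of 3 mice against 3 cannot give a p below 0.1, so the limma model was the only test of single genes.

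A single library stood apart from its group, and the results below are given with and without it where it mattered. Across the tested genes, the log2 values of control replicate 3 had an r of 0.952 and 0.955 with its group mates, whose own r was 0.983. It held 53.7 FPKM of the immediate-early gene Fos against at most 2.60 FPKM elsewhere. Without it, 210 genes passed the limma threshold (1.78%, with 0.652% lower), and Ces2a and Ces3b were the 2 members among them. The same 2 members passed when limma weighted each library by its scatter, where 4.77% of genes did (2.01% lower). From the smallest steps of low values, 1 fragment was estimated to be worth 0.0707 to 0.0758 FPKM for a transcript of 1 kb in the 6 libraries. Only values between 0.05 and 0.1 entered that estimate, so it could not show whether depth differed between libraries.

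Ces2a, a liver and gut member of the CES2 group, was lower in the knockouts without passing the limma threshold. It measured 230, 272 and 157 FPKM in control mice against 136, 121 and 111 FPKM in knockout mice. Every knockout lay below every control, with control replicate 3 the lowest of its group. Such a gap was seen in 11.6% of all tested genes, and a gap in either direction in 22.9%. The mean was 1.79-fold lower, a log2 fold change of -0.80 (SE 0.22, 95% interval -1.33 to -0.28, limma adjusted p = 0.198). Of all tested genes 4.12% had a smaller p. Without control replicate 3 the fold change was -1.03 and passed the threshold (limma adjusted p = 0.0420), and with any other library left out it lay between -0.88 and -0.63 and did not. The authors' deposited table gave 220 and 123 FPKM with q = 0.0355.

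Ces3b, a Ces3 enzyme, followed the same course at nearly the same level. Controls measured 279, 238 and 175 FPKM and knockouts 133, 141 and 113 FPKM. Again no knockout reached a control, and control replicate 3 was the lowest of its group. The mean was 1.79-fold lower, and the log2 fold change was -0.81 (SE 0.21, 95% interval -1.30 to -0.33, limma adjusted p = 0.177), with a smaller p in 2.83% of tested genes. Leaving out control replicate 3 gave -0.998 and a call (limma adjusted p = 0.0427), and leaving out any other library -0.88 to -0.67 and none. In the authors' deposited table Ces3b had q = 0.0310. The ratio of Ces2a to Ces3b FPKM was 0.826, 1.142 and 0.893 in the controls and 1.02, 0.854 and 0.987 in the knockouts. The relation between these 2 genes thus overlapped between the groups, and 5 of the other members lie between them on the chromosome.

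Ces3a, the near-copy of Ces3b, showed no such gap. It stood at 1183, 1207 and 1058 FPKM in control mice against 1508, 1283 and 1099 FPKM in knockout mice. Its groups overlapped, and its log2 fold change was 0.16 with an interval from -0.30 to 0.63 (limma adjusted p = 0.725). That interval holds both a higher and a lower level in the knockouts. The ratio of Ces3a to Ces3b was 4.24, 5.07 and 6.03 in the controls and 11.3, 9.09 and 9.75 in the knockouts. It did not overlap, and its mean was 1.96-fold higher in the knockouts. The gap in Ces3b alone enters this ratio, and how often ratios of other gene pairs separate was not computed. A ratio within a library does not depend on how libraries are scaled, but here it does depend on how shared fragments were divided. Summed, the 2 Ces3 genes gave 1462, 1445 and 1233 FPKM in control mice against 1641, 1424 and 1212 FPKM in knockout mice, so the Ces3 total overlapped and Ces3a carried most of it. As a share of all 8 members, Ces3a was 64.8% ± 0.867 in controls and 76.2% ± 4.37 in knockouts (SD, n = 3 each).

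Ces2g stood on the other side of the controls from Ces2a. Its values were 12.1, 12.7 and 15.9 FPKM in control mice against 16.8, 16.0 and 20.7 FPKM in knockout mice. The groups were apart, as they were in this direction in 11.3% of tested genes, by a narrow margin, since control replicate 3 (15.9 FPKM) nearly reached double knockout replicate 2 (16.0 FPKM). The fold was 1.32, with a log2 fold change of 0.37 (SE 0.17, 95% interval -0.02 to 0.77, limma adjusted p = 0.351). The authors' deposited table gave q = 0.370. Within the summed Ces2 FPKM, Ces2g made up 3.27%, 3.26% and 3.80% in controls and 6.54%, 7.45% and 6.28% in knockouts. That share did not overlap, and both the lower Ces2a values and the higher Ces2g values enter it. How often such shares separate among other genes was not computed. The ratio of Ces2a to Ces2g was 19.1, 21.4 and 9.88 in controls and 8.13, 7.55 and 5.37 in knockouts.

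**Figure D3:**
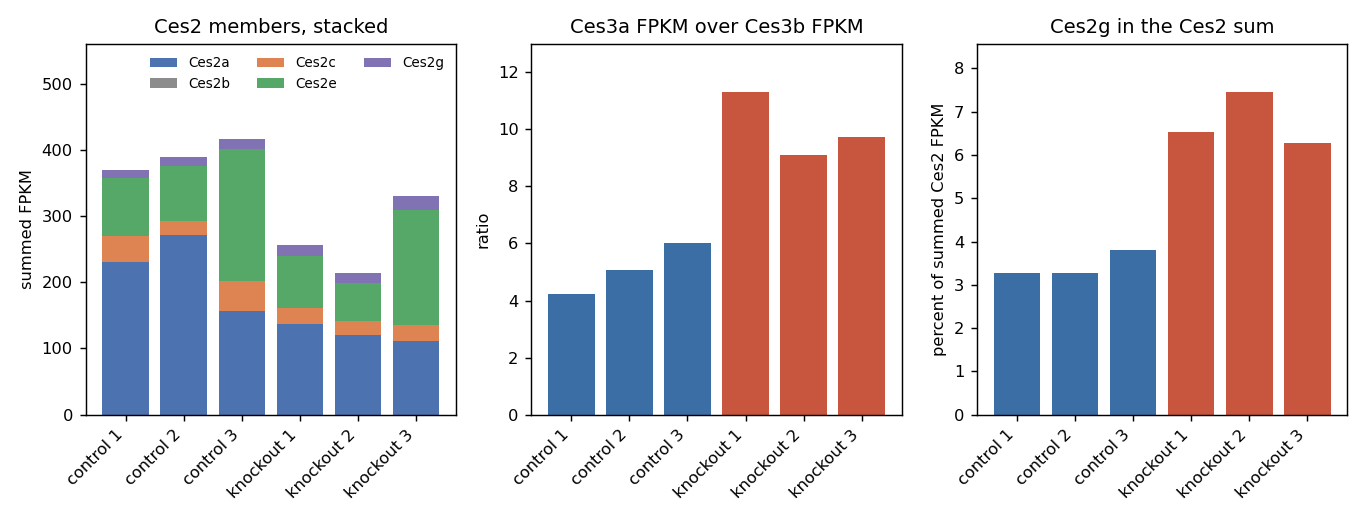
Summed FPKM of the 5 Ces2 members stacked by gene (left, y axis in FPKM), the ratio of Ces3a to Ces3b FPKM (middle) and the percent of the summed Ces2 FPKM held by Ces2g (right), for each of the 6 mice (x axis). The ratio is at most 6.03 in controls and at least 9.09 in knockouts, and the Ces2g share at most 3.80% and at least 6.28%. The gap in Ces3b enters the ratio, and those in Ces2a and Ces2g enter the share.

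Ces2c, known as an acylcarnitine-cleaving esterase that xenobiotics induce, varied among the controls. They measured 38.2, 20.7 and 45.1 FPKM, and the knockouts 23.7, 20.4 and 24.6 FPKM. Control replicate 2 lay within the knockouts, and the other 2 controls lay above them. The log2 fold change was -0.51 with an interval from -1.16 to 0.14 (limma adjusted p = 0.426), -0.84 without control replicate 2 and -0.29 without control replicate 3. The SD was 2.18 FPKM among the knockouts and 12.6 FPKM among the controls.

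Ces2e varied more within the groups than between them. It was at 87.8, 83.6 and 199 FPKM in control mice against 79.4, 57.1 and 174 FPKM in knockout mice, so replicate 3 of each group was far above the other 4 mice. The mean difference was smaller than the spread (log2 fold change -0.29, 95% interval -1.40 to 0.81, limma adjusted p = 0.798). Its sign turned when either control replicate 3 (0.11) or double knockout replicate 2 (0.05) was left out. With Ces2e included, the summed Ces2 FPKM was 369, 389 and 417 in controls and 256, 214 and 330 in knockouts. It was highest in the mice numbered 3. The groups stayed apart, and the gap in Ces2a enters that sum. The replicate numbers are not known to pair mice across the groups.

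Ces4a, the last gene of the array and at most 3.92 FPKM, was lowest in the mice in which Ces2e was highest. The controls were at 2.93, 1.86 and 0.693 FPKM and the knockouts at 3.08, 3.92 and 0.942 FPKM, replicate 3 being lowest in both groups. By the bounded depth estimate given above, these values rest on roughly 23.1 to 133 fragments per library. The log2 fold change of 0.34 had an interval from -0.64 to 1.32 (limma adjusted p = 0.728) and was 0.01 without control replicate 3. Across the 6 libraries Ces4a and Ces2e had a Pearson r of -0.96 on log2(FPKM + 1), a description in which both mice numbered 3 carry most of the range.

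Ces2b was listed at 0.730, 0.114 and 0.104 FPKM in control mice against 0.303, 0.305 and 0.0758 FPKM in knockout mice. By the same depth estimate that is roughly 3.61 to 32.8 fragments per library. Ces2b failed the filter on low values and was not tested by the authors either. With no filter its log2 fold change was -0.07 (limma adjusted p = 0.895), and a difference was not detectable at this low level.

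**Figure D4:**
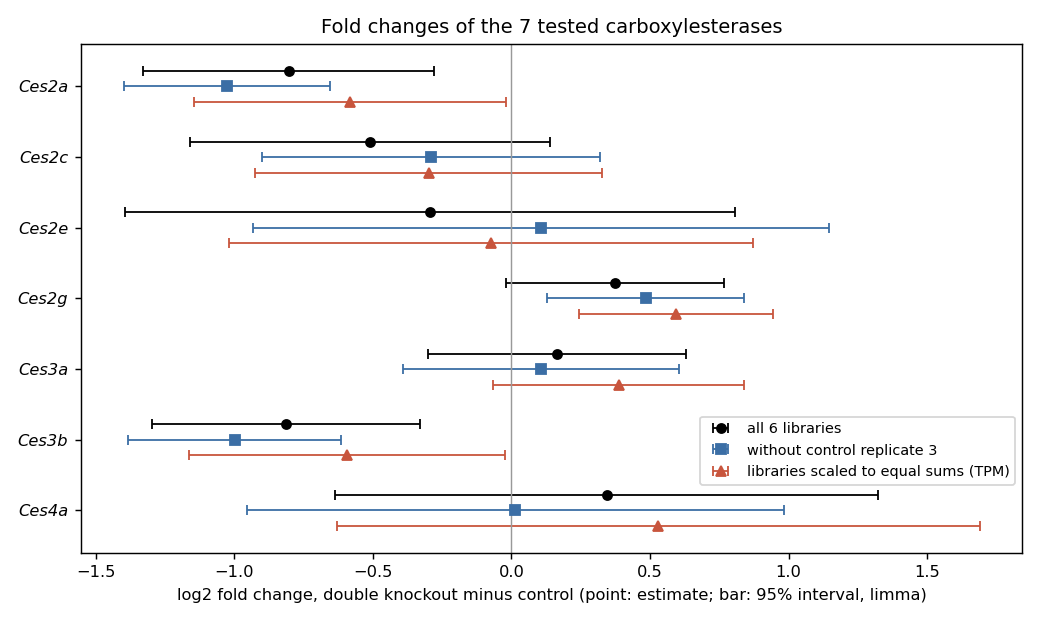
Log2 fold change, double knockout minus control (x axis; points are limma estimates, bars 95% intervals), for the 7 tested genes (y axis), from all 6 libraries, without control replicate 3, and after scaling libraries to equal sums. Ces2a and Ces3b lie below 0 in all 3 settings, Ces2g above 0 with an interval that reaches -0.02 in the first, and Ces2e and Ces4a have the widest intervals.

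Scaling bears on these directions, because the FPKM of all genes summed to less in the knockouts (610618 to 697877) than in the controls (702759 to 841745). Scaled to equal sums, as TPM, the median of all tested genes moved by 0.18 on the log2 scale, and 54 of 72 called genes were higher, against 20 of 37. On that scale the log2 fold change was -0.58 for Ces2a (limma adjusted p = 0.281), -0.59 for Ces3b (0.279), 0.59 for Ces2g (0.127) and 0.39 for Ces3a (0.348). No tested member changed sign, and Ces2e came nearest to 0 (-0.07).

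Cell type markers were read beside these values, since carboxylesterases of this array are hepatocyte and gut genes. The 8 hepatocyte markers summed to between 63039 and 75506 FPKM in control mice against 35110 and 55930 FPKM in knockout mice, and Alb made up most of that sum. All 8 had negative fold changes (median -0.36), from -0.77 for Alb to -0.01 for Cps1. Of the 8, 0 passed limma's threshold, and the authors' deposited table called 0, beside 4.58% of its tested genes. Ass1 alone had an unadjusted limma p under 0.05, beside 14.9% of all tested genes. Cps1 and Ass1 were named after their values were seen. In bulk RNA, fewer cells of a type and less RNA per cell cannot be told apart. The part of the lower hepatocyte sum in the Ces2a and Ces3b differences was not tested. Of the 7 enterocyte markers, Cdx1, Cdx2, Lct and Alpi were listed at 0 in every library. Fabp2 (108 ± 31.3 and 43.9 ± 12.5 FPKM, SD, n = 3 each) was the only one of at least 0.5 FPKM on average. Its log2 fold change was -1.28 (limma adjusted p = 0.134), with every knockout below every control, beside 11.6% of all tested genes. The authors' deposited table called Fabp2 lower, beside 1.73% of its tested genes. The 7 Kupffer cell and macrophage markers all had positive fold changes. Of these, 0 passed limma's threshold and 0 had an unadjusted limma p under 0.05, beside 14.9% of all tested genes. The authors' deposited table called 4 of the 7, beside 4.58% of its tested genes. The 7 markers summed to between 50.4 and 138 FPKM in control mice against 91.7 and 233 FPKM in knockout mice. Cholangiocyte markers summed to between 33.7 and 44.2 FPKM in control mice against 59.1 and 63.7 FPKM in knockout mice. Spp1 carried most of the cholangiocyte sum (36.0 ± 5.95 and 58.5 ± 2.96 FPKM, SD, n = 3 each). All 4 tested cholangiocyte markers had positive fold changes, and 0 passed limma's threshold. Only Spp1 among them had an unadjusted limma p under 0.05, beside 14.9% of all tested genes. It was also the only one called in the authors' deposited table, beside 4.58% of its tested genes. Sums of endothelial (33.7 to 45.01 and 25.5 to 51.9 FPKM) and stellate markers (46.4 to 93.9 and 46.5 to 119 FPKM) overlapped. Those of pancreatic acinar markers (0.164 to 1.35 and 0.630 to 2.29 FPKM) did too, with Cpa1, Prss2, Ctrb1 and Pnlip at 0. Of the 6 stellate markers the authors' deposited table called 2 higher, Col1a1 and Col1a2, and it called 0 endothelial and 0 acinar markers. In these lists only the endothelial marker Stab2, higher in the knockouts, had an unadjusted limma p under 0.05, and 0 passed limma's threshold. Col1a1, Col1a2 and Stab2 were named after their values were seen. The part of the macrophage and cholangiocyte markers in the members' differences was not tested.

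Among the carboxylesterases outside the 8, most of the tested genes stood lower in the knockouts, and 2 of them passed limma's threshold. Of 12, 6 were tested, all 6 of them Ces1 genes, and all had negative fold changes (median -1.07). Ces1g was lower by a log2 fold change of -3.27 (limma adjusted p = 0.00226) and Ces1b by -2.29 (0.0347), the 2 that passed. In 5 of the 6 the unadjusted limma p was under 0.05, beside 14.9% of all tested genes, and in 5 of the 6 every knockout lay below every control, beside 11.6%. The authors' deposited table called 4 of the 6 lower, beside 1.73% of its tested genes: Ces1b, Ces1g and, named after their values were seen, Ces1d and Ces1e. Whether the Ces1 genes differ from the Ces2 and Ces3 genes in their response was not tested.

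No other enzyme of related chemistry in the lists passed the limma threshold. Of 15 tested genes of neutral lipid and ester hydrolysis, 0 passed limma's threshold. Before adjustment 6 had a limma p under 0.05, beside 14.9% of all tested genes. The authors' deposited table called 0, beside 4.58% of its tested genes. Negative fold changes were seen in 11 and positive ones in 4, Dgat2 and, named after their values were seen, Abhd12, Lipa and Nceh1 (median -0.22). Aadac, an arylacetamide deacetylase of the endoplasmic reticulum, averaged 531 ± 93.7 FPKM in controls, and the knockout mean of 340 ± 54.7 FPKM was 1.56-fold lower (SD, n = 3 each; limma adjusted p = 0.247). Dgat2, which makes triacylglycerol, stood at 212 ± 21.7 and 295 ± 56.1 FPKM. In the list of other drug and toxin hydrolases, which also holds Aadac, 0 of 12 passed limma's threshold and 10 were negative (median -0.31). An unadjusted limma p under 0.05 was seen in 5 of the 12, beside 14.9% of all tested genes. The soluble epoxide hydrolase Ephx2 was at 624 ± 46.5 and 396 ± 42.5 FPKM, and the paraoxonase Pon1 at 749 ± 146 and 595 ± 104 FPKM (SD, n = 3 each). The 2 positive members, named after their values were seen, were Afmid and Bche. Bche, butyrylcholinesterase, a relative of the carboxylesterases that liver secretes, stood at 18.5 ± 6.28 FPKM in control mice against 42.5 ± 2.76 FPKM in knockout mice (SD, n = 3 each, limma adjusted p = 0.0958), and was the 1 member the authors' deposited table called.

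Regulators known for drug-metabolism and liver genes had fold changes of both signs. Of 21 tested genes of CAR, PXR and their targets, 0 passed limma's threshold, and 9 were positive and 12 negative (median -0.02). An unadjusted limma p under 0.05 was seen in 6 of the 21, beside 14.9% of all tested genes. The authors' deposited table called 2, beside 4.58% of its tested genes. They were Cyp2b9, higher, and Cyp2c55, lower, named here after their values were seen. Cyp3a11, a main PXR target, was at 2437 ± 201 and 2746 ± 731 FPKM, and Gstm1, a glutathione transferase, at 1179 ± 277 and 1216 ± 548 FPKM (SD, n = 3 each). Nr1i2, which encodes PXR, averaged 26.8 ± 2.26 and 18.6 ± 4.63 FPKM (limma adjusted p = 0.299). Rxra averaged 73.9 ± 12.9 and 114 ± 13.0 FPKM (limma adjusted p = 0.200). Both had groups apart, beside 22.9% of all tested genes, while those of Nr1i3, which encodes CAR, overlapped (limma adjusted p = 0.601). Nr1i2, Rxra and Nr1i3 were named after their values were seen. Of 10 liver transcription factors, 0 passed limma's threshold. Beside the same 14.9% and 4.58% of all tested genes, 1 had an unadjusted limma p under 0.05, Stat5b, and the authors' deposited table called 1, Srebf1. Both were named after their values were seen. Hnf4a, which maintains hepatocyte genes, was at 158 ± 35.4 and 130 ± 11.4 FPKM, and Cebpa at 159 ± 18.4 and 156 ± 36.1 FPKM (SD, n = 3 each).

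The genes most like each member across the 6 libraries were sought among 6390 genes averaging 5 FPKM or more, by Pearson r on log2(FPKM + 1). These r values describe 6 libraries that share group and library differences. For Ces2a they were Dxo, an RNA decapping enzyme (0.990), and Cyp2c44, an arachidonate epoxygenase (0.989). Cyp2c44 measured 165, 199 and 109 FPKM in control mice against 108, 94.0 and 79.0 FPKM in knockout mice, so like Ces2a it was lowest among controls in replicate 3. For Ces3b they were Gpr108 (0.982) and the immunoglobulin gene Igkc (0.980). For Ces2g they were Dpp4, a membrane peptidase (0.992), and Ank, a phosphate transporter (0.990). Dpp4 measured 18.8, 20.0 and 23.0 FPKM in control mice against 25.2, 23.2 and 29.0 FPKM in knockout mice. For Ces2c they were Snrpb2 (0.992) and Katna1 (0.986), for Ces2e Ipmk (0.994) and Abhd16a (0.993), for Ces4a Suv420h1 (0.986) and Rcc2 (0.980). Ces3a had the weakest matches, Cpeb4 (0.959) and Tbx3os1 (0.946). Among the members themselves, r was 0.94 between Ces2a and Ces3b, -0.91 between Ces2a and Ces2g, -0.96 between Ces2g and Ces3b, and -0.18 between Ces3a and Ces3b, over the same 6 libraries.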

How the data were processed

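Liver mRNA libraries from 6 mice were analysed, 3 per group, with groups and replicate numbers taken from the sample titles. Per the labels' protocols, RNA came from flash-frozen liver (Qiagen kit) and 1 µg went into Illumina's stranded mRNA preparation. Tools listed in the submitters' processing notes, without role or order, are Cuffdiff 2.2.1, STAR 2.4.2a, Trimmomatic, bcl2fastq 2.17.1.14 and Picard 1.119, with the build GRCm38 (mm10). Annotation, strand use and the handling of multi-mapped fragments are not given in these sources. FPKM of 48699 genes per library were deposited by the authors. Their deposited comparison holds each gene's p-value, q-value and group FPKM, per the file headers, and 0 columns of other samples were present. FPKM depends on the library total and on the transcript length used.

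Log2(FPKM + 1) was tested with limma 3.58.1 (R 4.3.3, mean-variance trend, Benjamini-Hochberg adjustment, threshold 0.05) over the 11810 genes averaging 0.5 FPKM or more; folds on that scale understate low genes. The script was tested on simulated data. Labels do not say that replicates are littermates or separate preparations, and p-values measure only the spread between these samples. Named were the 8 members, up to 4 passing (or else the 2 most abundant) genes per list, and the 2 most similar genes per member. The members and lists were chosen with earlier results of these data known. Depth was estimated from values between 0.05 and 0.1 FPKM times kilobases in single-transcript genes over 1500 bases (GENCODE M21). That range bounds the estimate in advance. Fragments per member are therefore approximate, and their counting error is not included in any interval. Coding and upstream sequences were aligned with MAFFT 7.526. Alternatives were other pseudocounts, filters, scalings, library weights, removal of length and GC trends, each library left out, a replicate block, no variance trend and the authors' table.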

Additional observations from a re-analysis of the deposited data

How the results depend on the processing

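Of the 7 tested members, Ces2a, Ces3b, Ces2c, Ces2g, Ces3a and Ces4a kept their direction under every alternative run. Calls changed for Ces2a and Ces3b only. With library weights both passed limma's threshold (log2 fold change -0.98, adjusted p = 0.0224, and -0.92, adjusted p = 0.0218), as in the authors' deposited table (-0.84 for each; q = 0.0355 and 0.0310), so 2 members were called there instead of 0. Leaving out 1 library gave 0 to 2 called members, with log2 fold changes of -1.03 to -0.63 for Ces2a and -0.998 to -0.67 for Ces3b; the 2 were called without control replicate 3 only. That library had the lowest weight (0.232 against 0.981 to 2.13). The sign of Ces2e turned when control replicate 3 (0.11) or double knockout replicate 2 (0.05) was left out, within a range of -0.75 to 0.11. Over the other alternatives, adjusted p lay between 0.0224 and 0.376 for Ces2a and between 0.0218 and 0.379 for Ces3b.

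The number of genes past limma's threshold was 37. It was 2 with no filter, 72 under TPM scaling, 563 with library weights and 542 in the authors' deposited table, and 2 to 210 with 1 library left out, 210 of them without control replicate 3; the cause was not tested. The replicate block left it at 50, with 0 members called and log2 fold changes of -0.80 for Ces2a (adjusted p = 0.160) and -0.81 for Ces3b (0.131). The block lowered the SE of Ces2e from 0.47 to 0.17 and that of Ces4a from 0.42 to 0.21. With it 4 members had an unadjusted limma p under 0.05 instead of 2, beside 16.3% of all tested genes. Deviations from the group mean correlated at 0.22, -0.08 and 0.30 between same-numbered mice and at -0.32 to 0.25 between the others. As the labels name no pairs, the numbers were not taken as pairs. Its low level limits what can be said of Ces2b, and with 3 mice a group the intervals of Ces2e and Ces4a exclude neither direction.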
